A study of Mus musculus with 9 samples.

Results

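Mouse neural crest cells captured at embryonic day 8.5 (E8.5), while the neural tube was closing, were compared with cells captured from the dorsal root ganglion at E13.5, which the labels also name neural crest cells. The comparison took 6 of the 9 arrays of the series, 3 per stage, by their labels. The other 3 arrays, of adrenal medulla from adult mice 3 months old (P90), entered only the filter on dim probe sets and the estimate of the spread. Cells were isolated by laser capture microdissection, and total RNA of each capture was hybridised to 1 Affymetrix mouse array. No strain, genotype, sex or treatment is given in the sources used here, and neither is the number of embryos behind a capture. The labels call the 3 samples of a stage biological replicates. The submitters' stated object was DNA repair; described here are the transcription factors, growth genes, adhesion and guidance molecules, signalling systems, neuronal genes and metabolic enzymes.

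Neural crest cells arise at the border of the neural plate, leave the dorsal neural tube and migrate through the embryo. Those that stop beside the neural tube build the dorsal root ganglia, in which sensory neurons and their satellite and Schwann cells form. By mid gestation many of these neurons have left the cell cycle and send axons to skin, muscle and spinal cord. Since embryos of each stage gave a different tissue, age and tissue cannot be told apart. In RNA of a whole capture, fewer cells of a type and less RNA per cell cannot be told apart either.

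Between early crest and the ganglion, genes changed in both directions. Of 13747 genes tested, 1275 were higher at E13.5 (9.27%), 992 were lower (7.22%) and 11480 were not called. A gene counts as called where limma's two-sided test gave a Benjamini-Hochberg adjusted p under 0.05; without adjustment, 3904 genes had p under 0.05. Changes are E13.5 minus E8.5 on the scale of log2(signal + 16), which understates the change of dim genes, and the median change of all tested genes was 0.02. Among the called genes, 677 rose and 367 fell by at least 2 on that scale, and 92 rose and 10 fell by at least 4. The 3 arrays of a stage lay wholly above the 3 of the other for 2562 genes with E13.5 higher (18.6% of all tested) and for 2353 with E13.5 lower (17.1%). Of the 2267 called genes (16.5%), 2254 were separated in this way. All genes described below as risen or fallen are among these unless stated, so only exceptions are noted. A stricter test, of a change of at least 2-fold, ended many of these calls and left 364 genes higher and 187 lower. It is not listed gene by gene, but the ranges of adjusted p over all settings include it. Signals are listed for replicates 1, 2 and 3 in turn, which are called arrays 1, 2 and 3 where leaving one out changed a count or ended a call.

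**Figure D1:**
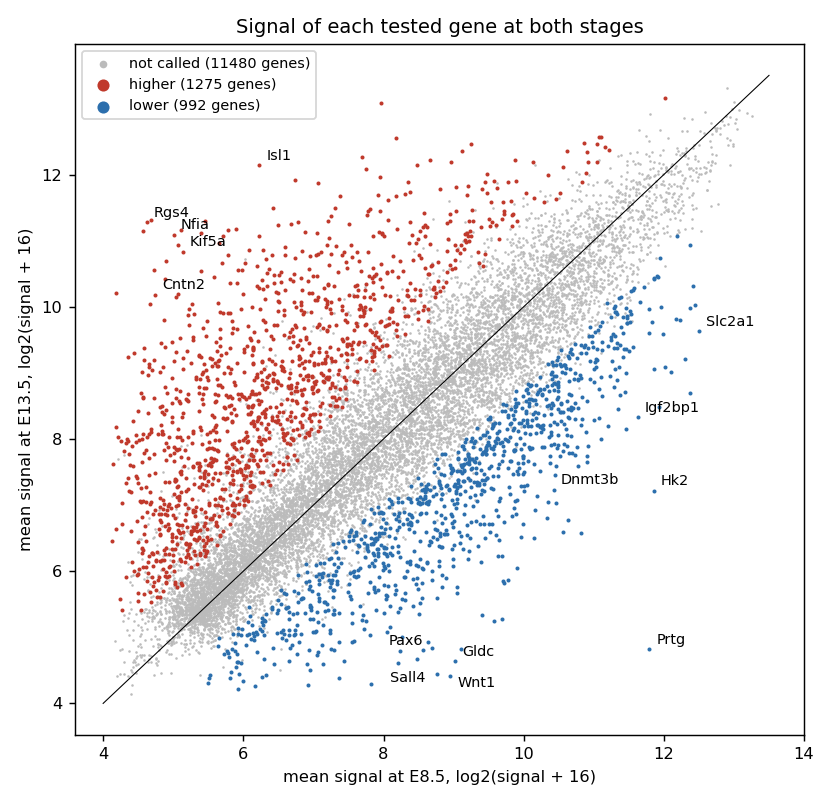
Each point is 1 of 13747 tested genes, placed by its mean log2(signal + 16) over the 3 E8.5 arrays (x axis) and the 3 E13.5 arrays (y axis); red genes were called higher at E13.5, blue genes lower, and the line marks equal signal. Prtg lies farthest below the line, and Rgs4, Nfia and Isl1 are among the genes farthest above it.

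Most of the largest changes among genes with no empty value, 12 in each direction, are described below by their role, and the other 6 here. Mmd2, a membrane protein of the progestin receptor family, had 12.05, 6.36 and 10.8 at E8.5 and 3442, 1579.6 and 2585 at E13.5 (log2 6.57 ± 0.51, adjusted p = 3.65e-05), but was not called with _s_at and _x_at probe sets omitted, which may bind several transcripts (log2 2.05, adjusted p = 0.0921; range over all settings 2.05e-06 to 0.0921). Thsd7a, a thrombospondin repeat protein, had 12.9, 7.33 and 11.5 at E8.5 and 407, 1576 and 2506 at E13.5 (log2 5.50 ± 0.78, adjusted p = 0.000704). Tfap2c, an AP-2 factor of early ectoderm, had 629, 880.5 and 928 at E8.5 and 33.2, 19.0 and 15.7 at E13.5 (log2 -4.43 ± 0.28, adjusted p = 1.00e-05), and was likewise not called without those probe sets (log2 -0.23, adjusted p = 0.707; range 8.51e-06 to 0.707). Inava, a regulator of epithelial junctions, had 824, 341 and 438 at E8.5 and 2.90, 25.6 and 8.81 at E13.5 (log2 -4.26 ± 0.36, adjusted p = 6.17e-05). Pawr, an apoptosis regulator, had 839.5, 1005 and 975 at E8.5 and 65.7, 24.6 and 60.7 at E13.5 (log2 -3.91 ± 0.43, adjusted p = 0.00017), and Ercc6l, a helicase of the mitotic spindle, 1486, 1595 and 1629 at E8.5 and 100.3, 78.4 and 100.8 at E13.5 (log2 -3.87 ± 0.28, adjusted p = 2.50e-05). Of the probe sets that passed the filter, 1 of 2 for Ercc6l and 2 of 3 for Mmd2 moved in the direction given. For Thsd7a, Tfap2c, Inava and Pawr all did. Only called genes whose stages did not overlap were ranked, so the lack of overlap in these genes is no result.

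Array medians were alike (38.3 to 46.5 over the 6 arrays), but 1 array stood apart. E13.5 replicate 2 had a mean signal of 179.4 against 328.3 and 296.6 on the other E13.5 arrays, and its Actb signal at the 3' end exceeded that at the 5' end by 6.69 on the log2 scale, against 0.849 and 2.85; a large difference accompanies degraded or short RNA. At E8.5 that difference was 4.70, 2.04 and 2.38. For Gapdh it was 1.81, 1.455 and 1.85 at E8.5 and 1.22, 4.44 and 2.84 at E13.5. Thus E13.5 replicate 2 stood apart for both genes, and E8.5 replicate 1 for Actb but not for Gapdh. E13.5 replicate 2 was the lowest of its stage in 61.5% of all tested genes and in 72.0% of those called higher. Log2 signals correlated at r = 0.951 to 0.986 among E8.5 arrays, 0.877 to 0.958 among E13.5 arrays and 0.827 to 0.892 between the stages, across probe sets, which are not independent replicates. The median within-stage SD of a gene was 0.27 at E8.5 and 0.48 at E13.5. Without E13.5 replicate 2, 1674 genes were higher and 788 lower. Without both it and E8.5 replicate 1, the array of largest Actb difference at E8.5, 1370 were higher and 690 lower. Both are called the 3'-biased arrays below, a name that for E8.5 replicate 1 rests on Actb alone. After scaling each array to a common median, 46.8% of calls were higher in place of 56.2% (1146 higher and 1304 lower), with the median of all genes at -0.11. The smallest numbers of higher calls came without E13.5 replicate 3 (779) and without E8.5 replicate 2 (783), which also left 572 lower calls; 1223 calls held whichever of the 9 arrays was left out. Few arrays limit the precision throughout.

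The 4 genes chosen to mark the stages moved with the labels. Prtg, a receptor of the immunoglobulin superfamily made by early neural epithelium, had signals of 3206, 3356 and 4029 at E8.5 and 8.99, 13.7 and 14.1 at E13.5 (log2 -6.97 ± 0.29, adjusted p = 5.92e-07). On this probe set every ganglion array was below 26.1, the signal used to filter dim probe sets. The 2 other probe sets of Prtg were empty on all E8.5 arrays, and 1 of them gave 31.7, 71.3 and 132.1 at E13.5. Wnt1, the dorsal neural tube ligand that marks crest precursors, had 433, 423 and 585 at E8.5 and 2.96, 10.7 and 2.44 at E13.5 (log2 -4.54 ± 0.25, adjusted p = 4.86e-06). Isl1, a homeodomain protein that sensory neurons need, gave 149, 12.5 and 14.9 at E8.5 and 5141, 3153 and 5244 at E13.5 (log2 6.39 ± 0.99, adjusted p = 0.00121). E8.5 replicate 1 was brighter for Isl1 than the other E8.5 arrays, and still far below every ganglion array. Rgs4, which shortens G protein signals, gave 9.92, 7.29 and 8.68 at E8.5 and 3766, 1081 and 2559 at E13.5 (log2 6.48 ± 0.45, adjusted p = 2.28e-05). Of 19 crest specifier factors tested, 3 fell and 16 were not called (median -0.3). The falls became 1 with E8.5 arrays 2 or 3 or E13.5 arrays 1 or 2 omitted. Sox10 (log2 0.71 ± 0.34, adjusted p = 0.197), Tfap2a (log2 -0.51 ± 0.45, adjusted p = 0.52) and Snai2 (log2 0.44 ± 0.51, adjusted p = 0.637) were not called. Some well-known ganglion genes could not be tested, because their probe sets were empty on E13.5 arrays in the deposited table; among them are Tubb3 and Avil.

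Most patterning factors of the neural plate and tube fell. Of 21 such factors tested, 12 fell and the other 9 were not called (median -1.41). Pax6, which patterns the ventricular zone, had 453, 428 and 316 at E8.5 and 11.7, 11.02 and 14.8 at E13.5 (log2 -3.85 ± 0.24, adjusted p = 1.00e-05). Msx3, a homeobox factor of the dorsal neural tube, had 165, 354 and 497 at E8.5 and 8.72, 11.1 and 8.66 at E13.5 (log2 -3.67 ± 0.33, adjusted p = 7.81e-05). Sp8, a zinc finger factor of neural ridge and limb, had 145, 387 and 304 at E8.5 and 4.53, 14.4 and 6.196 at E13.5 (log2 -3.52 ± 0.33, adjusted p = 7.97e-05). On all 3 ganglion arrays these genes were under 26.1, with E13.5 replicate 2 highest for Msx3 and Sp8. The dorsal factor Pax3 (log2 -3.28 ± 0.46, adjusted p = 0.000642), the Wnt-responsive factor Sp5 (log2 -2.98 ± 0.28, adjusted p = 7.97e-05), the interneuron progenitor factor Dbx1 (log2 -2.61 ± 0.23, adjusted p = 7.69e-05) and the crest border factor Msx1 (log2 -2.42 ± 0.39, adjusted p = 0.00143) fell as well. Irx5 (-1.97), Zic5 (-1.89) and Irx2 (-1.85) fell by less. Zic1, another dorsal factor, had 1804, 2247 and 2945 at E8.5 and 726, 1163 and 1949 at E13.5 and was not called (log2 -0.94 ± 0.42, adjusted p = 0.161). Its other probe set, which did not stand for the gene, had 1366, 1332 and 1896 at E8.5 and 286, 650 and 1196 at E13.5, without overlap.

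Among Hox genes, which set position along the body axis, most of the few tested genes of paralog groups 2 and 3 fell. Of 5 tested genes of these anterior groups, 4 fell (median -2.36) and Hoxb3 was not called (log2 -0.805). No gene of group 1 was tested. Of 18 genes of groups 4 to 13, 1 fell (median -0.0). The gene lists hold all Hox genes together, and this division was not among them. Hoxa2 had 231, 352 and 488 at E8.5 and 22.7, 32.0 and 96.7 at E13.5 (log2 -2.59 ± 0.40, adjusted p = 0.00117), Hoxb2 310.3, 231 and 207 at E8.5 and 28.8, 35.3 and 35.8 at E13.5 (log2 -2.41 ± 0.32, adjusted p = 0.000482) and Hoxd3 463, 411 and 489 at E8.5 and 64.2, 58.4 and 112 at E13.5 (log2 -2.36 ± 0.29, adjusted p = 0.000324). The 3 ganglion values of Hoxb2 lay close together, and for Hoxa2 and Hoxd3 replicate 3 was the highest. Hoxa3 fell too (log2 -2.06 ± 0.47, adjusted p = 0.0135, 1 empty value), but its call was lost with E8.5 array 2 or E13.5 array 2 omitted, with _s_at and _x_at probe sets omitted, with the mean of probe sets, where genes with empty cells were left out, with empty cells at the array maximum and with both 3'-biased arrays omitted (adjusted p from 0.00448 to 0.949 over all settings), and its sign turned under 3 of these settings. Hoxb9, the faller of the posterior groups (log2 -1.51 ± 0.42, adjusted p = 0.0291), was lost with E8.5 arrays 1 or 2 or E13.5 arrays 1, 2 or 3 omitted, with a pseudocount of 64, with no filter, with empty cells at the array maximum and with both 3'-biased arrays omitted (adjusted p from 0.0119 to 0.924 over all settings). Hoxa9 had 985, 261 and 29.2 at E8.5 and 533, 828 and 1431 at E13.5, so the stages overlapped, and it was not called (log2 1.91 ± 0.85, adjusted p = 0.162). The count of all 23 Hox genes called lower, 5, became 3 with E8.5 array 2 or E13.5 array 2 omitted, and 3 with both 3'-biased arrays omitted. Meis1, a cofactor that binds DNA with Hox proteins, had 1269.6, 1511 and 1461 at E8.5 and 215, 228 and 404 at E13.5 (log2 -2.31 ± 0.38, adjusted p = 0.00158).

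**Figure D2:**
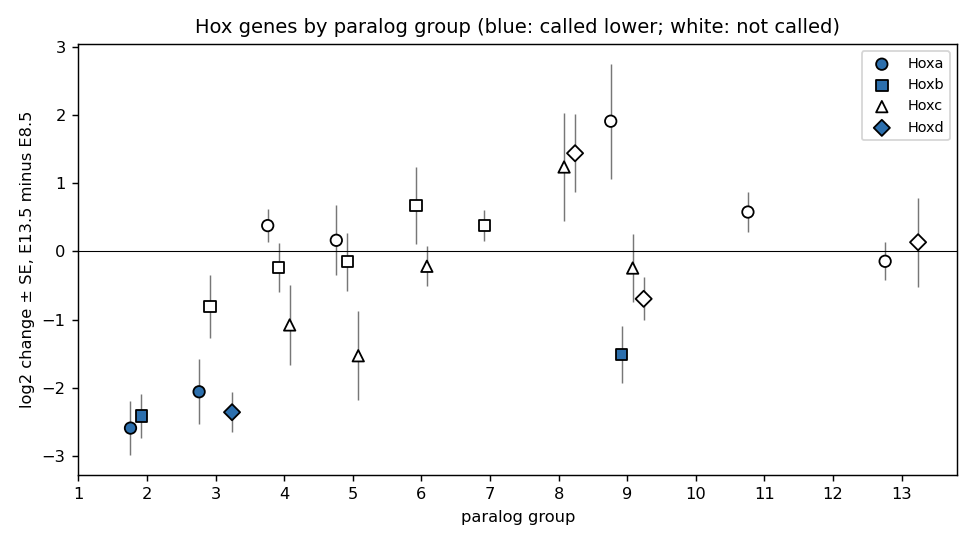
Log2 change (y axis, E13.5 minus E8.5, bars ± SE) of the 23 tested Hox genes by paralog group (x axis, from anterior to posterior); symbols give the cluster and blue marks genes called lower. The 4 called genes of groups 2 and 3 lie between -2.59 and -2.06, while genes of groups 4 to 13 scatter around 0 and 1 of them was called.

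Most factors of sensory neurons rose. Of 30 tested, 17 rose, 1 fell and 12 were not called (median 2.46). Isl2, a relative of Isl1, had 32.8, 35.1 and 52.1 at E8.5 and 989, 750.1 and 1086 at E13.5 (log2 4.10 ± 0.32, adjusted p = 4.10e-05). Hmx1, a homeobox factor of cranial and spinal ganglia, had 48.5, 30.3 and 37.6 at E8.5 and 288, 1081 and 1458 at E13.5 (log2 3.86 ± 0.49, adjusted p = 0.000379). Shox2, needed by touch neurons, had 53.1, 33.3 and 37.8 at E8.5 and 532, 726 and 1331 at E13.5 (log2 3.85 ± 0.67, adjusted p = 0.00233). These genes were dim on all E8.5 arrays, and Hmx1 and Shox2 had their lowest ganglion value on replicate 1. Runx3, a factor of proprioceptive neurons, had 9.39, 9.95 and 21.0 at E8.5 and 94.2, 663 and 525 at E13.5 (log2 3.57 ± 0.57, adjusted p = 0.0015), and Runx1, of pain-sensing neurons, 2.43, 1 and 2.83 at E8.5 and 893 and 1449 at E13.5, where replicate 1 was empty (log2 5.997 ± 0.44, adjusted p = 4.56e-05). Tlx3 (log2 3.14 ± 0.30, adjusted p = 8.35e-05), Ebf2 (log2 3.33 ± 0.29, adjusted p = 7.00e-05), Onecut2 (log2 3.21 ± 0.53, adjusted p = 0.00167) and Klf7 (log2 2.98 ± 0.35, adjusted p = 0.00027), all factors of neuronal differentiation, rose too. The faller was Neurog2, which starts sensory neurogenesis, with 1139.7, 541 and 300.2 at E8.5 and 3.37, 59.4 and 10.1 at E13.5 (log2 -4.13 ± 0.53, adjusted p = 0.00038). Falls numbered 2 with E13.5 array 2 or P90 array 1 omitted. Its relative Neurog1 was not called (log2 -0.26 ± 0.30, adjusted p = 0.649). Neurod1, which acts after them, rose (log2 2.94 ± 0.70, adjusted p = 0.0142), but E8.5 replicate 1 overlapped E13.5 replicate 1 and the call was lost with E8.5 arrays 2 or 3 or E13.5 array 3 omitted (adjusted p from 0.000422 to 0.15 over all settings).

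The zinc finger factors Myt1, Myt1l and Casz1 rose, and so did 3 of 4 nuclear factor I genes and the thyroid hormone receptor Thra. Myt1l, which represses non-neuronal genes, had 50.1, 41.5 and 83.5 at E8.5 and 1664, 534 and 1492 at E13.5 (log2 3.95 ± 0.58, adjusted p = 0.000866), and all 4 of its passing probe sets moved this way. Myt1 gave log2 4.08 ± 0.68, adjusted p = 0.00183 and Casz1 log2 3.93 ± 0.56, adjusted p = 0.000733, although 1 of the 2 probe sets of Casz1 went the other way. Of 27 broadly neuronal factors, 7 rose, 1 fell and 19 were not called (median 0.83), a number of rises that became 11 with E13.5 array 2 omitted, 12 with P90 array 1 omitted, and 11 after quantile normalization. The faller was Rest, a repressor of neuronal genes (log2 -1.64 ± 0.39, adjusted p = 0.0143), whose call was lost with E8.5 arrays 1 or 2 omitted and with both 3'-biased arrays omitted (adjusted p from 0.00309 to 0.615 over all settings). Falls numbered 0 with E8.5 arrays 1 or 2 omitted, 2 with E13.5 array 3 omitted. Nfia, a gliogenic factor, had 13.05, 20.9 and 14.4 at E8.5 and 3082, 947 and 2459.8 at E13.5 (log2 5.93 ± 0.61, adjusted p = 0.000112). Nfix had 4.21, 13.8 and 18.1 at E8.5 and 498, 551 and 454 at E13.5 (log2 4.23 ± 0.34, adjusted p = 4.50e-05), and Nfib rose by less (log2 1.899 ± 0.52, adjusted p = 0.0277), a call lost with E8.5 arrays 1, 2 or 3 or E13.5 arrays 1 or 3 omitted, with empty cells at the array maximum and with both 3'-biased arrays omitted (adjusted p from 0.000358 to 0.547 over all settings). Nfix was not called with empty cells set to the array maximum (log2 5.24, adjusted p = 0.0651; range over all settings 1.70e-05 to 0.0651), a setting that left 1 of the family called, while Nfic was not called (log2 0.78 ± 0.35, adjusted p = 0.164). Thra had 321, 239.9 and 259 at E8.5 and 4728, 1904 and 3104 at E13.5 (log2 3.41 ± 0.43, adjusted p = 0.000349), and the orphan receptor Nr6a1, of early embryos, 452, 1045 and 847 at E8.5 and 58.7, 55.7 and 62.1 at E13.5 (log2 -3.33 ± 0.36, adjusted p = 0.000142). Among 29 nuclear receptors tested, 5 rose and 2 fell (median 0.14). These are 17.2% and 6.9%, against 9.27% higher and 7.22% lower among all tested genes. The rises became 3 with E8.5 arrays 1 or 3 or E13.5 array 3 omitted, 2 with E8.5 array 2 omitted, and 3 with both 3'-biased arrays omitted or with empty cells at the array maximum. The falls became 1 with E8.5 arrays 2 or 3 or E13.5 arrays 2 or 3 omitted. Id4, an inhibitor of bHLH factors, had 294, 43.4 and 58.9 at E8.5 and 3257, 2186 and 2040.5 at E13.5 (log2 4.46 ± 0.58, adjusted p = 0.000426), whereas the E protein Tcf3 (log2 -2.16 ± 0.49, adjusted p = 0.0107) and the POU factors Pou3f2 (log2 -2.16 ± 0.45, adjusted p = 0.00653) and Pou3f3 (log2 -2.32 ± 0.31, adjusted p = 0.000491) fell.

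Genes of the embryonic growth programme, active in pluripotent and early progenitor cells, fell in part. Of 15 tested, 8 fell and 7 were not called (median -1.44). Sall4, a zinc finger factor of pluripotent cells, had 337, 381 and 534 at E8.5 and 2.08, 11.3 and 3.72 at E13.5 (log2 -4.32 ± 0.26, adjusted p = 1.00e-05). Igf2bp1, an mRNA-binding protein of fetal tissue, had 3509, 3003 and 2942 at E8.5 and 142, 377 and 397 at E13.5 (log2 -3.42 ± 0.41, adjusted p = 0.000278). Hmga2, a chromatin protein of progenitors, had 4412, 4358 and 4330.1 at E8.5 and 173, 499 and 824 at E13.5 (log2 -3.34 ± 0.49, adjusted p = 0.000919), and Lin28a, which blocks let-7 maturation, 69.3, 132 and 116 at E8.5 and 2.58, 3.53 and 4.23 at E13.5 (log2 -2.61 ± 0.23, adjusted p = 7.29e-05). For Igf2bp1 and Hmga2 the lowest ganglion value was on replicate 1, the array with the smallest Actb difference. The caudal factor Cdx1 fell from already low signals (log2 -1.63 ± 0.29, adjusted p = 0.00282).

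Most genes of replication and mitosis fell. Of 40 genes of the replication fork and origin, 29 fell (median -1.97), and of 41 of the kinetochore and spindle, 35 fell (median -2.37); the rest of both lists were not called. Cdc6, which loads the replicative helicase, had 901 and 736 at E8.5, where replicate 1 was empty, and 69.4, 25.4 and 31.0 at E13.5 (log2 -3.92 ± 0.35, adjusted p = 8.35e-05). Cdt1, its partner, had 2908 and 2702 at E8.5, where replicate 1 was empty, and 357, 214 and 236 at E13.5 (log2 -3.34 ± 0.39, adjusted p = 0.000332). Ccnf, a cyclin of the G2 phase, had 369.6, 309.6 and 305 at E8.5 and 35.8, 29.5 and 19.8 at E13.5 (log2 -2.97 ± 0.25, adjusted p = 5.85e-05), and Ccnd1, the G1 cyclin, fell by less, with 2791, 2717 and 2633 at E8.5 and 712, 514 and 1069 at E13.5 (log2 -1.87 ± 0.36, adjusted p = 0.00404). The atypical repressors E2f7 (log2 -2.26 ± 0.31, adjusted p = 0.000549) and E2f8 (log2 -1.97 ± 0.31, adjusted p = 0.00142) fell. Of 30 cyclins and cyclin-dependent kinases, 11 fell and 2 rose. The most risen was Cdk5r2, an activator of the neuronal kinase Cdk5, with 10.0, 5.91 and 6.94 at E8.5 and 3258, 1743 and 1714 at E13.5 (log2 6.51 ± 0.96, adjusted p = 0.000884), and the other its relative Cdk5r1 (log2 3.44 ± 0.87, adjusted p = 0.0211), a call lost with E8.5 arrays 2 or 3 or E13.5 arrays 1 or 3 omitted, with the mean of probe sets and where genes with empty cells were left out (adjusted p from 0.0014 to 0.147 over all settings). The rises became 1 with E8.5 arrays 2 or 3 or E13.5 arrays 1 or 3 omitted, 4 with E13.5 array 2 or P90 array 1 omitted.

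Most genes that make ribosomes fell, while genes of the ribosome itself were not called. Of 58 ribosome biogenesis genes tested, 39 fell and 19 were not called (median -1.64, with 1 of 58 above 0). Ddx18, an RNA helicase of the nucleolus, had 2302, 1637 and 1422 at E8.5 and 387, 142 and 314 at E13.5 (log2 -2.68 ± 0.46, adjusted p = 0.00217). Utp20, of the small subunit processome, had 799.8, 1128 and 1087 at E8.5 and 270.3, 86.8 and 225 at E13.5 (log2 -2.39 ± 0.45, adjusted p = 0.00353), and Pes1, of the large subunit, 849, 609 and 638 at E8.5 and 219.9, 90.7 and 154 at E13.5 (log2 -2.12 ± 0.37, adjusted p = 0.00242). Dkc1, the pseudouridine synthase of box H/ACA particles, had 949, 2841 and 2329 at E8.5 and 379.9, 201 and 309 at E13.5 (log2 -2.62 ± 0.47, adjusted p = 0.00286). In each of the 4 genes E13.5 replicate 2 was the lowest array, but replicates 1 and 3 also lay below every E8.5 array. The number that fell became 19 with E8.5 array 2 omitted, 23 with E8.5 array 3 or E13.5 array 3 omitted, and 22 with both 3'-biased arrays omitted. Among 41 cytosolic ribosomal proteins tested of 76 listed, limma called 0, with a median of -0.56 and 2 of 41 above 0. At an unadjusted p under 0.05 there were 0 higher and 3 lower. After quantile normalization 3 were called lower, and 1 with median scaling, with empty cells at the array maximum or with P90 array 1 omitted. The difference between these lists was not tested. Eef1a2, the elongation factor of mature neurons and muscle, had 35.5, 49.8 and 38.4 at E8.5 and 1729, 234 and 311 at E13.5 (log2 3.20 ± 0.69, adjusted p = 0.00782), with replicate 1 far above the other ganglion arrays. Its ubiquitous relative Eef1a1 was not called (log2 -0.53 ± 0.44, adjusted p = 0.483), and Eif4ebp1, which holds back cap-dependent translation, fell (log2 -1.79 ± 0.35, adjusted p = 0.00499).

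Promoters of all tested genes of these lists, called or not, were searched for short motifs, because replication genes are known for E2F sites and ribosome biogenesis genes for E boxes bound by Myc. Windows of 300 bases around each start, 250 before and 50 after, came from RefSeq on GRCm38.p6. The E2F motif, TTTCCCGC or TTTGGCGC on either strand, stood in 14 of 36 windows of replication genes (38.9%; 31 of 40 genes matched), in 369 of 14035 windows of all tested genes (2.6%) and in 514 of all 32851 windows (1.6%). It stood in 61 of 964 windows of genes called lower (6.3%), 17 of 1372 of genes called higher (1.2%) and 3 of 40 of kinetochore genes (7.5%). The E box CACGTG, which reads the same on both strands, stood in 11 of 62 windows of ribosome biogenesis genes (17.7%; 53 of 58 genes matched), 1318 of 14035 of all tested genes (9.4%) and 2349 of all 32851 (7.2%). In ribosomal protein genes it stood in 5 of 42 (11.9%). A match is a description of letters, not of binding. Shown are windows of 4 genes named above, chosen because the gene fell and its only window holds a match. They therefore say nothing on how often a match occurs. The match is in capitals, and the windows are from the strand of the gene. They lie at chr11:98907901-98908200 (Cdc6, plus strand), chr8:122567765-122568064 (Cdt1, plus strand), chr10:88826765-88827064 (Utp20, minus strand) and chr11:3963725-3964024 (Pes1, plus strand).
Cdc6: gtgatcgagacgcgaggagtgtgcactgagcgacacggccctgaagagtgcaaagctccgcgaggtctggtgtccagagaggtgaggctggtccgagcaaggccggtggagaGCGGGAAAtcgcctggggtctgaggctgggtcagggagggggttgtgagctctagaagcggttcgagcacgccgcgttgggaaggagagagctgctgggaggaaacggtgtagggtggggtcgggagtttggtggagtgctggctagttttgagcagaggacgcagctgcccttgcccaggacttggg
Cdt1: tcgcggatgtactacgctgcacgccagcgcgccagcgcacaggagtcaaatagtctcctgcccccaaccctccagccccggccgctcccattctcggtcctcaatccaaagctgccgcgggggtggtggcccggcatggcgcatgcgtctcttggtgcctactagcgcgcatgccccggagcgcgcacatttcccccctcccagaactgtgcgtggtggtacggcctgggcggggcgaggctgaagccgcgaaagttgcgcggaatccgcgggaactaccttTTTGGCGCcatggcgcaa
Utp20: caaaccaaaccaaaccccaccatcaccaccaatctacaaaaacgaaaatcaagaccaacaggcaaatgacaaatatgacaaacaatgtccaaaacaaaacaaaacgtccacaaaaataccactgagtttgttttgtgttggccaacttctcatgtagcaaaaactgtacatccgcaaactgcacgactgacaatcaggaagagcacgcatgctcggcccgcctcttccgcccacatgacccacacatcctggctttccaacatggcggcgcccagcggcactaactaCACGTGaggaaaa
Pes1: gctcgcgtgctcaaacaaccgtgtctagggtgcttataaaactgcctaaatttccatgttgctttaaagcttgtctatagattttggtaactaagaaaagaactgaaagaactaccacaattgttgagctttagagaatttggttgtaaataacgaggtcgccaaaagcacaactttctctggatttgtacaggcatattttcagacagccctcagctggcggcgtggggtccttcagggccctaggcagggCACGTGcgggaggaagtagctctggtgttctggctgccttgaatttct

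DNA methylation, Polycomb and nucleosome remodelling genes changed in a few members each. The de novo methyltransferase Dnmt3b had 1164, 1364 and 1561 at E8.5 and 104, 146 and 153 at E13.5 (log2 -3.20 ± 0.33, adjusted p = 0.000116). The Polycomb methyltransferase Ezh2 had 2038, 2271 and 2226 at E8.5 and 527, 262 and 631 at E13.5 (log2 -2.25 ± 0.41, adjusted p = 0.00324), while its alternative Ezh1 was not called (log2 0.70 ± 0.35, adjusted p = 0.224). Actl6a, the progenitor subunit of the BAF remodelling complex, had 3399, 3589 and 3558 at E8.5 and 807, 889 and 1267 at E13.5 (log2 -1.84 ± 0.41, adjusted p = 0.00957), and its neuronal counterpart Actl6b rose (log2 1.05 ± 0.30, adjusted p = 0.0324), a call lost with E8.5 arrays 1, 2 or 3 or E13.5 array 1 omitted, with median scaling, with no filter, with no variance trend, with empty cells at the array maximum and with both 3'-biased arrays omitted (adjusted p from 0.024 to 1 over all settings). Chd5, a remodeller of neurons, had 31.5, 28.5 and 21.6 at E8.5 and 685, 394 and 557 at E13.5 (log2 3.67 ± 0.71, adjusted p = 0.00456), and the nucleosome-binding protein Hmgn5 fell (log2 -2.29 ± 0.36, adjusted p = 0.00142). Of 16 DNA methylation genes 3 fell and 1 rose, and of 27 Polycomb genes 6 fell and 1 rose. Among 26 BAF genes 4 fell and 2 rose. The rises were 6.2%, 3.7% and 7.7% of these lists, below the 9.27% of all tested genes. The falls were 18.8%, 22.2% and 15.4%, against 7.22% of all tested genes. The Polycomb falls became 3 with E8.5 array 2 omitted. The Polycomb rises became 2 with E8.5 array 1, E13.5 array 1, or P90 array 1 omitted, 0 with E8.5 arrays 2 or 3 or E13.5 array 3 omitted, 4 with E13.5 array 2 omitted, and 3 after quantile normalization or with both 3'-biased arrays omitted. The BAF falls became 2 with E8.5 array 1 omitted, 1 with E8.5 arrays 2 or 3 omitted, and 2 with both 3'-biased arrays omitted. The BAF rises became 1 with E8.5 array 1, E13.5 array 3, or P90 arrays 2 or 3 omitted, 0 with E8.5 arrays 2 or 3 or E13.5 array 1 omitted, 5 with E13.5 array 2 omitted, and 0 with median scaling or with empty cells at the array maximum. The methylation falls became 5 with median scaling, and the rises 2 with E13.5 arrays 1 or 2 omitted. The single riser among methylation genes was Dnmt3a (log2 2.60 ± 0.43, adjusted p = 0.00165), for which 1 of 5 probe sets was called lower and the mean of probe sets was not called (log2 0.68, adjusted p = 0.316; range over all settings 0.000125 to 0.316). Of 35 RNA-binding and splicing factors tested, 11 rose and 3 fell (median 0.17). Rbfox1, a splicing factor of mature neurons, had 51.2, 107 and 249 at E8.5 and 4016, 1557 and 2310.3 at E13.5 (log2 4.24 ± 0.54, adjusted p = 0.000377). Elavl3, which stabilises neuronal mRNAs, had 372, 120.4 and 129.6 at E8.5 and 2787, 2776 and 2954 at E13.5 (log2 3.85 ± 0.61, adjusted p = 0.00139), nearly equal on the 3 ganglion arrays. Celf3 rose (log2 3.90 ± 0.82, adjusted p = 0.007) and Msi2, an RNA-binding protein of stem cells, fell (log2 -2.11 ± 0.40, adjusted p = 0.00378), while the splicing repressor Ptbp1 was not called (log2 -0.04 ± 0.34, adjusted p = 0.959).

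Adhesion molecules of axons rose in part in several families. Of 45 immunoglobulin cell adhesion molecules tested, 19 rose and 1 fell (median 1.34), of 38 synaptic adhesion and leucine-rich repeat proteins 15 rose and 1 fell (0.97), and of 17 protocadherins 8 rose (1.21), against 9.27% of all tested genes. L1cam, which binds axons into bundles, had 176, 200.3 and 314 at E8.5 and 4299, 3641 and 4049.6 at E13.5 (log2 4.06 ± 0.60, adjusted p = 0.000941). Cntn2, a partner of L1cam on growing axons, had 12.2, 9.58 and 10.5 at E8.5 and 366, 1289 and 1789 at E13.5 (log2 5.17 ± 0.46, adjusted p = 7.69e-05). Cntn1 had 16.9, 16.3 and 19.2 at E8.5 and 3826, 356 and 1633 at E13.5 (log2 5.32 ± 0.82, adjusted p = 0.00125), and Cntnap4, a neurexin relative, 21.2, 8.51 and 9.69 at E8.5 and 1399.7, 400.3 and 812 at E13.5 (log2 4.78 ± 0.40, adjusted p = 6.17e-05). L1cam was even over the ganglion arrays, Cntn2 was lowest on replicate 1 and Cntn1 on replicate 2, and 1 of the 2 probe sets of Cntn1 went the other way. Chl1, of the L1 family, gave log2 3.71 ± 0.68, adjusted p = 0.00315, and Adam22, the receptor of Lgi proteins, log2 3.72 ± 0.65, adjusted p = 0.00237. The protocadherins Pcdh11x (log2 3.03 ± 0.28, adjusted p = 7.88e-05) and Pcdh9 (log2 3.01 ± 0.57, adjusted p = 0.00385) rose. Cdh2, the cadherin of neural tube and nerve, had 2582, 2090.5 and 1896 at E8.5 and 2158, 1590.5 and 2746 at E13.5 and was not called (log2 -0.04 ± 0.34, adjusted p = 0.962). Cdh19, a cadherin of Schwann cell precursors, rose (log2 2.81 ± 0.38, adjusted p = 0.0005). The immunoglobulin family count became 12 with E8.5 array 2 omitted. The faller of this family was not called in 7 of the 9 fits that left out 1 array, and that of the synaptic adhesion proteins in 6.

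Part of the matrix genes rose and part of the epithelial junction genes fell. Of 26 collagens tested, 12 rose and 2 fell (median 1.28), and of 51 laminins and matrix glycoproteins 13 rose and 5 fell (0.62). Dcn, a small proteoglycan of connective tissue, had 25, 22.2 and 31.8 at E8.5 and 4069, 556 and 1978 at E13.5 (log2 5.31 ± 0.75, adjusted p = 0.000704). Bgn, its close relative, had 91.3, 127 and 208 at E8.5 and 4093, 1744 and 2739 at E13.5 (log2 4.17 ± 0.47, adjusted p = 0.000205), and Spock2, a proteoglycan of nervous tissue, 32.2, 30.5 and 32.5 at E8.5 and 1793, 949.5 and 1400.0 at E13.5 (log2 4.83 ± 0.52, adjusted p = 0.000147). Col8a2 had 18.1, 13.2 and 7.42 at E8.5 and 229, 486 and 867 at E13.5 (log2 4.06 ± 0.41, adjusted p = 0.000106). Collagen VI chains rose together, with Col6a1 at log2 2.499 ± 0.50, adjusted p = 0.00556, Col6a2 at log2 2.85 ± 0.34, adjusted p = 0.000285 and Col6a3 at log2 2.88 ± 0.59, adjusted p = 0.00638. Col18a1, of basement membranes, fell, with 2133, 2259 and 1867 at E8.5 and 651, 470.3 and 613 at E13.5 (log2 -1.83 ± 0.39, adjusted p = 0.00739), and so did Vcan, a proteoglycan along crest paths (log2 -2.21 ± 0.47, adjusted p = 0.00783). The fibronectin gene Fn1 was not called (log2 -0.62 ± 0.63, adjusted p = 0.588). Itga4, an integrin subunit, rose (log2 3.18 ± 0.42, adjusted p = 0.000478). Summed signals of 17 mesenchyme markers were 3697 to 5209.9 on the E8.5 arrays and 7254 to 19841 on the E13.5 arrays, with 6 of 19 tested markers called higher; their part in these changes was not tested. Of 42 epithelial junction and keratin genes, 12 fell and 1 rose (median -0.28). Krt18 had 473, 807 and 970.0 at E8.5 and 21.5, 30.4 and 14.2 at E13.5 (log2 -4.29 ± 0.50, adjusted p = 0.000254) and Krt8 353, 1041 and 1188 at E8.5 and 53.3, 38.5 and 34.4 at E13.5 (log2 -3.76 ± 0.41, adjusted p = 0.000172). The rise was Jup, the gene of plakoglobin, a junction protein that binds cadherins (log2 1.84 ± 0.39, adjusted p = 0.00722); rises numbered 2 with E13.5 array 2 omitted. Summed signals of 13 surface ectoderm and epithelium markers, keratins among them, were 2192 to 4627 at E8.5 and 752.2 to 894 at E13.5, and their part was not tested. The number of epithelial falls became 7 with E8.5 array 2 omitted. That of matrix falls became 3 with E8.5 arrays 2 or 3 or E13.5 arrays 2 or 3 omitted and 3 with empty cells set to the array maximum.

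Guidance systems changed in both directions. Of 26 genes of the netrin, slit and repulsive guidance systems, 5 rose and 4 fell (median 0.29), and of 35 semaphorins, plexins and neuropilins 9 rose and 1 fell (0.58). Igdcc3, of the same receptor family as Prtg, had 2093, 1786 and 1845 at E8.5 and 118, 233 and 241 at E13.5 (log2 -3.23 ± 0.36, adjusted p = 0.000181), and its 3 probe sets moved the same way. Its relatives Dcc (log2 -0.79 ± 0.68, adjusted p = 0.502) and Neo1 (log2 0.60 ± 0.40, adjusted p = 0.374) were not called. Ntn1, the netrin ligand, had 669.9 and 389.7 at E8.5, where replicate 1 was empty, and 75.3, 69.3 and 65.8 at E13.5 (log2 -2.62 ± 0.40, adjusted p = 0.00154), and the repulsive ligand Rgma fell (log2 -2.01 ± 0.30, adjusted p = 0.000989). Rtn4rl1, a receptor for myelin inhibitors, had 3.48, 9.66 and 10.4 at E8.5 and 738, 249 and 730.4 at E13.5 (log2 4.49 ± 0.63, adjusted p = 0.000704). Nrp1, the receptor for class 3 semaphorins, had 987, 554 and 638 at E8.5 and 3653, 1912 and 3568 at E13.5 (log2 2.03 ± 0.40, adjusted p = 0.00487), while its ligand Sema3a had 368, 593 and 347 at E8.5 and 88.6, 63.2 and 145 at E13.5 (log2 -1.999 ± 0.35, adjusted p = 0.00262). Receptor and ligand moved in opposite directions, with no overlap of the stages in either. Dpysl3, a collapsin response mediator, had 124, 196 and 250.2 at E8.5 and 5500.2 and 4284 at E13.5, where replicate 2 was empty (log2 4.61 ± 0.57, adjusted p = 0.000476), and the semaphorin Sema6d rose (log2 2.22 ± 0.28, adjusted p = 0.000321). Among the 18 Eph genes, the receptor Epha3 rose (log2 2.79 ± 0.43, adjusted p = 0.00119) and the ligand Efnb3 fell (log2 -1.99 ± 0.32, adjusted p = 0.00149). The other Eph genes were not called, and 5.6% in each direction is below the shares among all tested genes. The rises of the netrin group became 2 with E8.5 arrays 1, 2 or 3 or E13.5 array 3 omitted, 3 with P90 array 2 omitted, and 3 with both 3'-biased arrays omitted. Those of the semaphorin group became 5 with E8.5 arrays 2 or 3 omitted, 4 with E13.5 array 3 omitted.

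In the Wnt system, the ligand Wnt1, the nuclear effector Lef1 and the feedback gene Axin2 fell. Of 62 Wnt genes tested, 13 fell, 3 rose and 46 were not called (median -0.14). Axin2, a target that limits the pathway, had 829, 668 and 645 at E8.5 and 86.0, 64.2 and 117 at E13.5 (log2 -2.82 ± 0.36, adjusted p = 0.000369). Lef1 had 179, 458 and 395 at E8.5 and 19.1, 8.45 and 83.3 at E13.5 (log2 -2.93 ± 0.51, adjusted p = 0.00221), and Sfrp2, a secreted Wnt binder, 925, 575 and 530.0 at E8.5 and 149.6, 36.8 and 79.1 at E13.5 (log2 -2.84 ± 0.41, adjusted p = 0.000776). On every ganglion array Axin2 and Sfrp2 stood several-fold below the lowest E8.5 array. The secreted Wnt modulator Dkk2 rose from signals under 26.1 (log2 1.28 ± 0.26, adjusted p = 0.00541). The 3 rises became 1 with E8.5 arrays 1 or 2 or E13.5 array 3 omitted, 5 with E13.5 array 2 omitted.

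In the retinoic acid system, Crabp2 and Aldh1a2 fell. Crabp2, which carries retinoic acid to its receptors, had 3226, 4022 and 4452 at E8.5 and 377, 112 and 533 at E13.5 (log2 -3.68 ± 0.49, adjusted p = 0.000482). Aldh1a2, the enzyme that makes retinoic acid in somites and meninges, had 1911, 3425 and 2492 at E8.5 and 246, 628 and 707 at E13.5 (log2 -2.36 ± 0.44, adjusted p = 0.0037). Both were bright on all E8.5 arrays and lower on all ganglion arrays, with the lowest ganglion value on replicate 2 for Crabp2 and on replicate 1 for Aldh1a2. Crabp1, of the same family, fell from 2134 and 2655 at E8.5, where replicate 3 was empty, and 681, 225 and 530.2 at E13.5 (log2 -2.41 ± 0.71, adjusted p = 0.0425), but lost its call with E8.5 arrays 1, 2 or 3, E13.5 arrays 2 or 3, or P90 array 3 omitted, with a pseudocount of 1, with no filter and with both 3'-biased arrays omitted (adjusted p from 0.00628 to 0.418 over all settings). The receptor Rarb also fell (log2 -1.03 ± 0.28, adjusted p = 0.0279), a call lost with E8.5 arrays 2 or 3 or E13.5 arrays 2 or 3 omitted and with both 3'-biased arrays omitted (adjusted p from 0.0133 to 1 over all settings). Of 18 genes of the system 4 fell, which became 2 with E8.5 arrays 2 or 3 or E13.5 arrays 2 or 3 omitted, and 2 with both 3'-biased arrays omitted.

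Among Hedgehog genes, transcription factors of the response fell. Gli2, its main activator, had 921, 726 and 511 at E8.5 and 86.1, 77.3 and 77.8 at E13.5 (log2 -2.89 ± 0.35, adjusted p = 0.000305), and Gli3, its main repressor, 1031, 1693 and 1949.8 at E8.5 and 139.8, 289 and 323 at E13.5 (log2 -2.59 ± 0.41, adjusted p = 0.00146). The receptor Ptch1 was not called (log2 -0.54 ± 0.50, adjusted p = 0.544). The signal transducer Smo fell (log2 -1.88 ± 0.39, adjusted p = 0.00668), but not with _s_at and _x_at probe sets omitted (log2 -0.96, adjusted p = 0.16; range over all settings 0.00329 to 0.287). Disp2, a relative of the protein that releases the ligand, had 50.8, 33.4 and 47.8 at E8.5 and 1619, 881 and 1392 at E13.5 (log2 4.42 ± 0.51, adjusted p = 0.000246), although its 2 probe sets moved in different directions. Of 18 genes tested 5 fell and 2 rose (median -0.43), and the falls became 3 with E8.5 array 2 omitted. The rises became 1 with E8.5 arrays 1, 2 or 3 or E13.5 array 1 omitted.

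FGF, BMP and Notch genes moved singly. Fgf15 had 576, 589 and 514 at E8.5 and 98.7, 91.0 and 147 at E13.5 (log2 -2.19 ± 0.31, adjusted p = 0.000726), while the intracellular Fgf11 rose (log2 2.70 ± 0.34, adjusted p = 0.000359). The receptor Fgfr1 was not called (log2 0.05 ± 0.42, adjusted p = 0.962), and Fgfr2 fell (log2 -1.93 ± 0.51, adjusted p = 0.0222), a call lost with E8.5 arrays 1, 2 or 3 or E13.5 array 3 omitted, with _s_at and _x_at probe sets omitted, with the mean of probe sets and with both 3'-biased arrays omitted (adjusted p from 0.00154 to 0.474 over all settings). The phosphatase Dusp8, which turns off stress kinases, rose (log2 2.57 ± 0.31, adjusted p = 0.000294) and Dusp5, an ERK phosphatase, fell (log2 -1.59 ± 0.31, adjusted p = 0.00438). Acvr2b, an activin receptor, had 2830.3, 1152 and 1197 at E8.5 and 171, 237 and 253 at E13.5 (log2 -2.77 ± 0.45, adjusted p = 0.00151). Fstl5, a follistatin relative, had 7.62, 8.03 and 7.92 at E8.5 and 710.0, 279 and 953 at E13.5 (log2 4.63 ± 0.65, adjusted p = 0.000682), and it was under 26.1 on every E8.5 array. The ligand Bmp4 (log2 -0.24 ± 0.31, adjusted p = 0.689) and the receptor Notch1 (log2 0.45 ± 0.48, adjusted p = 0.619) were not called. Heyl, a Notch target of neurons and vessels, rose, with 56.1, 36.4 and 34.1 at E8.5 and 198, 188 and 275 at E13.5 (log2 2.02 ± 0.29, adjusted p = 0.000773). Of 33 FGF genes 5 rose and 5 fell, of 47 BMP and TGF-beta genes 4 rose and 2 fell, and of 30 Notch genes 4 rose and 1 fell. Among all tested genes 9.27% rose and 7.22% fell. The FGF falls became 3 with E8.5 array 1, E13.5 arrays 1, 2 or 3, or P90 array 3 omitted, 2 with E8.5 arrays 2 or 3 omitted and 2 with both 3'-biased arrays omitted. The BMP rises became 12 with E13.5 array 2 omitted, and 8 after quantile normalization or with both 3'-biased arrays omitted. The BMP falls became 1 with E8.5 arrays 2 or 3 or E13.5 arrays 1 or 2 omitted, and 4 after quantile normalization. The Notch rises became 2 with E8.5 arrays 2 or 3 omitted.

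Receptors for survival factors rose in part. Gfra3, the receptor for artemin in pain-sensing neurons, had 265, 184 and 206 at E8.5 and 1916, 697 and 1572 at E13.5 (log2 2.49 ± 0.45, adjusted p = 0.00288). Lifr, a receptor of the leukaemia inhibitory factor family, had 320.4, 353 and 297 at E8.5 and 3039, 985 and 2416 at E13.5 (log2 2.52 ± 0.51, adjusted p = 0.00558), and Kidins220, a scaffold at neurotrophin receptors, 322, 328 and 303 at E8.5 and 3922, 949.5 and 2569.6 at E13.5 (log2 2.68 ± 0.49, adjusted p = 0.00302). These genes were lowest on replicate 2 among the ganglion arrays and still above all E8.5 arrays. Ntrk2, the BDNF receptor, rose (log2 2.18 ± 0.59, adjusted p = 0.0261), a call lost with E8.5 arrays 1, 2 or 3 or E13.5 arrays 1 or 3 omitted, with empty cells at the array maximum and with both 3'-biased arrays omitted (adjusted p from 0.00129 to 0.396 over all settings), and Ntrk3 was not called (log2 -0.09 ± 0.25, adjusted p = 0.871), nor was Ret (log2 0.39 ± 0.39, adjusted p = 0.578). Ntrk3 and Ret each have a probe set empty on all E13.5 arrays. With empty cells at the array maximum, all 3 ganglion values of those probe sets were filled in, so a rise was fixed in advance. Both then passed limma's test as higher (Ntrk3 at log2 8.31, adjusted p = 2.15e-07, and Ret at log2 5.68, adjusted p = 1.44e-05), which cannot show a rise. Over all settings adjusted p ranged from 2.15e-07 to 1 for Ntrk3 and from 1.44e-05 to 1 for Ret. Another Ntrk3 probe set with no empty value had 28.25, 44.2 and 37.4 at E8.5 and 77.5, 56.3 and 84.8 at E13.5. The stages did not overlap on it, but did on the remaining Ntrk3 probe sets without empty values. It did not stand for the gene in the test. Mdk, a heparin-binding growth factor of the embryo, had 4392, 3541 and 3213 at E8.5 and 712, 339 and 505 at E13.5 (log2 -2.85 ± 0.42, adjusted p = 0.000907), and Igf1, the circulating growth factor, 49.8, 143 and 197 at E8.5 and 1114, 481 and 1623 at E13.5 (log2 2.90 ± 0.55, adjusted p = 0.00394). Erbb2 fell (log2 -1.19 ± 0.25, adjusted p = 0.00688), while Erbb3, the neuregulin receptor of glia, was not called (log2 1.504 ± 0.63, adjusted p = 0.137). Of 21 neurotrophin and GDNF family genes 5 rose, which became 3 with E8.5 arrays 1, 2 or 3 or E13.5 arrays 1 or 3 omitted, and 8 with empty cells set to the array maximum. The 8 include Ntrk3 and Ret, whose ganglion values were then all filled in.

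Genes of intracellular signalling in excitable cells rose in part. Of 62 calcium and cyclic nucleotide genes 23 rose (median 1.11), and of 46 RGS and G protein genes 15 rose (0.59); the others were not called. Gnao1, the abundant G protein alpha subunit of neurons, had 12.4, 25.2 and 32.7 at E8.5 and 1334, 323 and 1144 at E13.5 (log2 4.40 ± 0.66, adjusted p = 0.00101). Gng3, a neuronal gamma subunit, had 82.2, 97.6 and 124 at E8.5 and 2727, 1623 and 2314 at E13.5 (log2 4.24 ± 0.60, adjusted p = 0.000704), and Rgs5 11.4, 14.2 and 14.7 at E8.5 and 921, 359 and 683 at E13.5 (log2 4.41 ± 0.41, adjusted p = 7.97e-05). Each was at least several-fold above every E8.5 array on E13.5 replicate 2, the lowest ganglion array for all of them. Adcy5, which makes cyclic AMP, rose (log2 4.13 ± 0.50, adjusted p = 0.000294), as did Pde2a, which breaks it down, with 150.1, 159 and 189.6 at E8.5 and 2261, 1962 and 3063 at E13.5 (log2 3.73 ± 0.49, adjusted p = 0.000482). Prkca, a calcium-dependent protein kinase, had 119, 72.5 and 80.3 at E8.5 and 2630.2, 990.2 and 1473 at E13.5 (log2 3.92 ± 0.45, adjusted p = 0.000226). The calcium and cyclic nucleotide count became 13 with E8.5 array 2 omitted, 11 with E13.5 array 3 omitted.

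Most sodium and calcium channel genes rose, and other channel and receptor genes rose in part. Of 23 voltage-gated sodium and calcium channel genes 16 rose (median 1.9), and of 40 potassium, chloride and HCN channel genes 17 rose and 1 fell (0.94). Cacna2d1, the calcium channel subunit bound by gabapentin, had 10.2, 5.77 and 12.4 at E8.5 and 1075, 463 and 1591 at E13.5 (log2 5.22 ± 0.46, adjusted p = 7.29e-05), with its 4 probe sets in 1 direction. Scn3b, a sodium channel subunit, had 71.6, 62.9 and 75.6 at E8.5 and 2862 and 2878 at E13.5, where replicate 2 was empty (log2 5.07 ± 0.78, adjusted p = 0.00151). Kcnmb2, a subunit of calcium-activated potassium channels, had 31.7, 40.1 and 37.5 at E8.5 and 1072, 2478 and 2856 at E13.5 (log2 5.25 ± 0.62, adjusted p = 0.00026), and Kcnip2, a potassium channel partner, 11.496, 8.06 and 9.27 at E8.5 and 228, 206 and 371 at E13.5 (log2 3.43 ± 0.25, adjusted p = 2.55e-05). Cacna1b, the N-type calcium channel, rose (log2 3.44 ± 0.64, adjusted p = 0.00364). Trpv2, a cation channel of large sensory neurons, had 11.4, 22.2 and 16.9 at E8.5 and 373, 385 and 489 at E13.5 (log2 3.72 ± 0.28, adjusted p = 3.31e-05), even across the ganglion arrays. P2rx3, the ATP receptor of pain-sensing neurons, had 425, 336 and 949 at E8.5 and 4795, 1910.0 and 3174 at E13.5 (log2 2.54 ± 0.46, adjusted p = 0.00299), and so already gave signal at E8.5. Ptgir, the prostacyclin receptor, rose (log2 3.25 ± 0.29, adjusted p = 7.81e-05). The sodium and calcium channel count became 9 with E13.5 array 3 omitted. Of 20 TRP, ASIC, P2X and mechanosensory channels 5 rose, which became 3 with E8.5 array 2 or E13.5 array 1 omitted. Of 48 transmitter receptors 11 rose, which became 6 with E8.5 array 2 omitted, 7 with E8.5 array 3 or E13.5 array 1 omitted.

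Most genes of the release machinery rose, and peptide genes rose in part. Of 59 synaptic vesicle and exocytosis genes, 37 rose, 1 fell and 21 were not called (median 1.93). Syt1, the calcium sensor of vesicle fusion, had 93.9, 72.6 and 116 at E8.5 and 3701, 1084 and 2646 at E13.5 (log2 4.35 ± 0.61, adjusted p = 0.000711). Unc13a, which primes vesicles, had 6.10, 6.72 and 23.98 at E8.5 and 589, 603 and 854 at E13.5 (log2 4.66 ± 0.62, adjusted p = 0.000492), and Rab3c, a vesicle GTPase, 14.9, 14.1 and 23.2 at E8.5 and 1567, 564 and 1348 at E13.5 (log2 5.02 ± 0.65, adjusted p = 0.000424) with 5 probe sets in 1 direction. The faller was Stxbp6, a syntaxin-binding protein, with 563, 649 and 714 at E8.5 and 197, 93.8 and 145 at E13.5 (log2 -2.08 ± 0.36, adjusted p = 0.00239), and falls numbered 2 with E13.5 array 3 or P90 arrays 1 or 3 omitted. Of 24 neuropeptide, granin and processing genes 10 rose (median 0.84), led by galanin, Gal, with 32.4, 47.5 and 50.9 at E8.5 and 3098, 1090.3 and 2734 at E13.5 (log2 5.16 ± 0.60, adjusted p = 0.000251). The granin Chgb rose too (log2 4.02 ± 0.55, adjusted p = 0.000553). The peptide count became 6 with E8.5 array 1 omitted.

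Cytoskeleton and transport genes of axons rose in part, and so did glial genes. Of 48 microtubule and neurofilament genes 15 rose (median 0.77), and of 41 transport motors and adaptors 14 rose and 1 fell (0.88). Kif5a, the neuronal kinesin heavy chain, had 11.2, 14.3 and 32.0 at E8.5 and 2790.2, 601 and 2030.4 at E13.5 (log2 5.48 ± 0.64, adjusted p = 0.000254), while its ubiquitous relative Kif5b was not called (log2 -0.72 ± 0.70, adjusted p = 0.568). Mapt, the microtubule protein tau, had 86.1, 88.6 and 98.6 at E8.5 and 5088, 2579.6 and 3835 at E13.5 (log2 5.12 ± 0.50, adjusted p = 8.57e-05). The faller was Nde1, a dynein adaptor of dividing progenitors, with 513, 401 and 386 at E8.5 and 131, 28.8 and 70.4 at E13.5 (log2 -2.43 ± 0.41, adjusted p = 0.00197). The transport rises became 9 with E8.5 arrays 1 or 3 or E13.5 array 1 omitted, 24 with E13.5 array 2 omitted, 8 with E13.5 array 3 omitted. Of 28 glial and myelin genes 10 rose and 1 fell (median 0.94). The fall was not called in 7 of the 9 fits with 1 array omitted. S100b, a calcium-binding protein of Schwann cells, had 8.42, 12.2 and 7.21 at E8.5 and 455, 164 and 145 at E13.5 (log2 3.25 ± 0.40, adjusted p = 0.000319), and Cryab, a small heat shock protein of glia and muscle, 1.96, 6.38 and 14.8 at E8.5 and 601, 227 and 316 at E13.5 (log2 3.99 ± 0.66, adjusted p = 0.00177). Both were brightest on replicate 1. The glial rises became 6 with E8.5 array 2 omitted, and 16 with empty cells set to the array maximum, where filled-in values can force a rise.

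**Figure D3:**
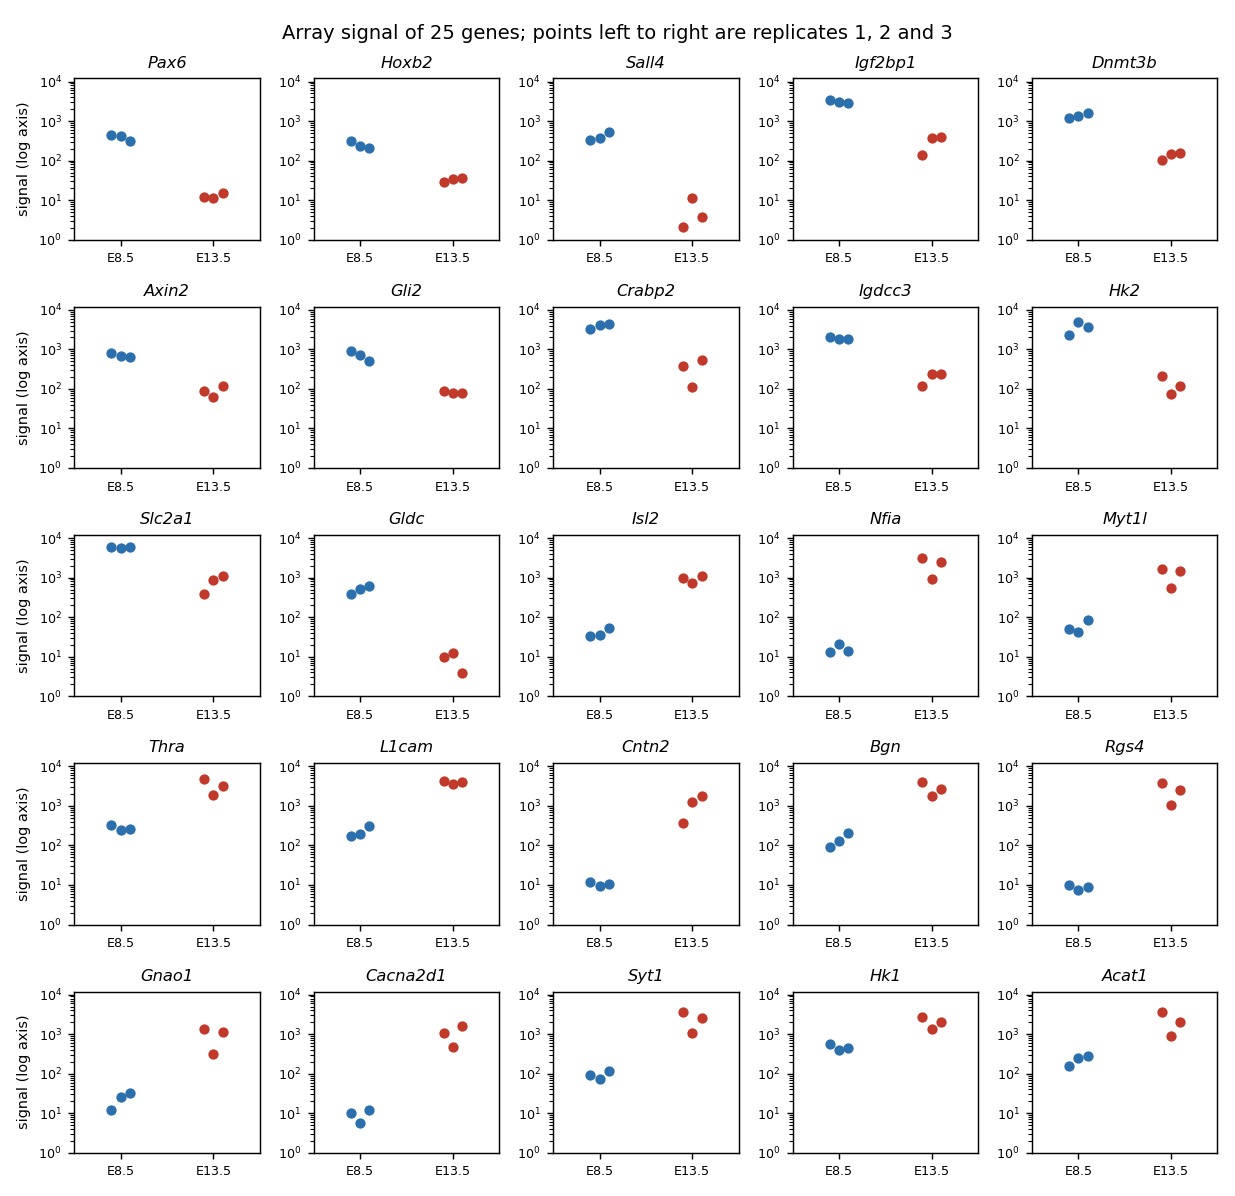
Array signal (log axis) of 25 genes, 1 panel each, with E8.5 in blue and E13.5 in red and replicates 1, 2 and 3 from left to right; each point is 1 array. The first 12 genes fell and the last 13 rose, and in no panel do the stages overlap.

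Glucose uptake and the first steps of glycolysis changed by isoform. Hk2, a hexokinase of growing tissue, had 2282, 5024 and 3754 at E8.5 and 207, 75.8 and 116 at E13.5 (log2 -4.66 ± 0.58, adjusted p = 0.000319). Hk1, the hexokinase of brain and nerve, had 558, 397 and 452 at E8.5 and 2762, 1366 and 2097 at E13.5 (log2 2.06 ± 0.39, adjusted p = 0.00378). The isoforms moved in opposite directions, with no overlap of the stages in either. The glucose transporter Slc2a1 had 5987, 5537 and 5812 at E8.5 and 384, 868 and 1079.9 at E13.5 (log2 -2.99 ± 0.43, adjusted p = 0.000792), and the liver-type phosphofructokinase Pfkl 3373, 2202 and 2740.5 at E8.5 and 736, 155 and 322 at E13.5 (log2 -2.96 ± 0.49, adjusted p = 0.00182). Eno2, the neuronal enolase, had 41.8, 28.5 and 34.0 at E8.5 and 2253, 152 and 451 at E13.5 (log2 3.48 ± 0.75, adjusted p = 0.00822), brightest on replicate 1. Pfkp, the platelet-type phosphofructokinase, rose (log2 2.55 ± 0.66, adjusted p = 0.0217), a call lost with E8.5 arrays 1, 2 or 3 or E13.5 arrays 1 or 3 omitted (adjusted p from 0.00039 to 0.259 over all settings). Slc2a3, the neuronal glucose transporter, fell (log2 -2.68 ± 0.79, adjusted p = 0.0378), a call lost with E8.5 arrays 1, 2 or 3 or E13.5 arrays 2 or 3 omitted, with no filter, with _s_at and _x_at probe sets omitted, with empty cells at the array maximum and with both 3'-biased arrays omitted (adjusted p from 0.00491 to 0.826 over all settings). Ldha (log2 -1.46 ± 0.54, adjusted p = 0.0926) and Pkm (log2 -1.66 ± 0.61, adjusted p = 0.0892), of the last steps, were not called. Their stages did not overlap, which with E13.5 lower also held for 17.1% of all tested genes. Of 33 glycolysis genes 8 fell and 4 rose (median -0.63). The falls became 5 with E8.5 arrays 2 or 3 or E13.5 arrays 2 or 3 omitted, 13 after quantile normalization and 5 with empty cells set to the array maximum.

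Mitochondrial energy genes were mostly not called. Of 69 respiratory chain and ATP synthase genes 2 rose and 67 were not called (median 0.13), and of 27 genes of the tricarboxylic acid cycle limma called 0, with a median of -0.21, and at an unadjusted p under 0.05 there were 1 higher and 1 lower. The risers were the complex I subunit Ndufv3 (log2 1.04 ± 0.30, adjusted p = 0.0365) and the muscle and heart form of a complex IV subunit, Cox7a1 (log2 1.23 ± 0.33, adjusted p = 0.0268), and their count became 1 with E8.5 array 1 or P90 array 2 omitted, 0 with E8.5 arrays 2 or 3 or E13.5 arrays 1 or 3 omitted. It became 1 with median scaling and 9 after quantile normalization. The call of Ndufv3 was lost with E8.5 arrays 1, 2 or 3, E13.5 arrays 1 or 3, or P90 array 2 omitted, with median scaling, with the mean of probe sets and with a block for replicate number (adjusted p from 0.00395 to 1 over all settings). That of Cox7a1 was lost with E8.5 arrays 2 or 3 or E13.5 arrays 1 or 3 omitted (adjusted p from 0.0158 to 1 over all settings). Citrate synthase, Cs, had 2115, 2988 and 2881 at E8.5 and 4569, 2705 and 4743 at E13.5 and was not called (log2 0.56 ± 0.35, adjusted p = 0.346). Among enzymes of ketone use, Acat1 and Oxct1 rose. List members were named partly for a large rise, so this is no result on ketone use as a whole. Acat1, which makes and splits acetoacetyl-CoA, had 156, 245 and 285 at E8.5 and 3685, 884 and 2096 at E13.5 (log2 3.01 ± 0.51, adjusted p = 0.00199), and Oxct1, the enzyme that activates ketone bodies, 451, 463 and 518 at E8.5 and 3862, 1389 and 2801 at E13.5 (log2 2.33 ± 0.45, adjusted p = 0.00404) with 4 probe sets in 1 direction. Both were lowest on replicate 2 of the ganglion and above all E8.5 arrays. Fasn, which makes fatty acids, was not called (log2 -0.17 ± 0.34, adjusted p = 0.805). Of 45 genes of fatty acid synthesis, elongation and oxidation, both among them, 6 rose and 1 fell (median 0.53). These are 13.3% and 2.2%, against 9.27% higher and 7.22% lower among all tested genes. The rises became 3 with E8.5 array 2 omitted, 12 with E13.5 array 2 omitted, 10 with P90 array 1 omitted, and 12 after quantile normalization.

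Enzymes of glycine cleavage, folate and nucleotide synthesis fell in part. Of 29 serine, glycine and folate enzymes 8 fell and 21 were not called (median -0.88), and of 36 purine and pyrimidine synthesis genes 12 fell and 24 were not called (-1.17). Gldc, the glycine cleavage decarboxylase, had 392.4, 515 and 602 at E8.5 and 10.1, 12.6 and 3.85 at E13.5 (log2 -4.38 ± 0.63, adjusted p = 0.000749). Cth, which makes cysteine from cystathionine, had 255, 460.3 and 375 at E8.5 and 11.3, 14.2 and 10.7 at E13.5 (log2 -3.72 ± 0.32, adjusted p = 6.43e-05), and Mthfd1, a trifunctional folate enzyme, 1391, 1671 and 1539 at E8.5 and 343, 179.7 and 286 at E13.5 (log2 -2.48 ± 0.44, adjusted p = 0.00249). Gldc and Cth were under 26.1 on every ganglion array. Phgdh, the first enzyme of serine synthesis, was not called (log2 -0.22 ± 0.40, adjusted p = 0.785), and neither was Psat1, the next (log2 -1.10 ± 0.37, adjusted p = 0.0669). Rrm2, the ribonucleotide reductase subunit of the S phase, had 4351, 5369 and 5347 at E8.5 and 721, 359 and 647 at E13.5 (log2 -3.14 ± 0.37, adjusted p = 0.00026). Ppat, the committed enzyme of purine synthesis, had 539.6, 1160.3 and 1104 at E8.5 and 107, 79.3 and 115 at E13.5 (log2 -2.97 ± 0.36, adjusted p = 0.000305), Pfas gave log2 -2.57 ± 0.41, adjusted p = 0.00154, and Cad, of pyrimidine synthesis, log2 -2.31 ± 0.34, adjusted p = 0.00088. The purine enzyme Paics was not called (log2 -0.35 ± 0.35, adjusted p = 0.579). After quantile normalization 19 nucleotide synthesis genes fell.

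Other metabolic genes moved singly. Among adenylate kinases, the cytosolic Ak1 had 67.9, 60.2 and 67.1 at E8.5 and 521, 294 and 458 at E13.5 (log2 2.40 ± 0.34, adjusted p = 0.000697), and the mitochondrial Ak4 1815 and 1746 at E8.5, where replicate 1 was empty, and 127, 42.3 and 68.0 at E13.5 (log2 -4.34 ± 0.40, adjusted p = 0.000106), with 2 of 3 probe sets in this direction. The isozymes moved in opposite directions. The cholesterol exporter Abcg1 rose (log2 2.83 ± 0.50, adjusted p = 0.00265), while Hmgcs1, of cholesterol synthesis, was not called (log2 -0.08 ± 0.27, adjusted p = 0.889). Ids, a lysosomal sulfatase, had 165, 386 and 398 at E8.5 and 5545, 1062 and 3536 at E13.5 (log2 3.15 ± 0.59, adjusted p = 0.00359). Of 58 lysosome and autophagy genes 7 rose (12.1%, against 9.27% of all tested genes, with a median of 0.57). That number became 1 with E8.5 array 2 or E13.5 array 3 omitted, 2 with E8.5 array 3 or E13.5 array 1 omitted, 16 with E13.5 array 2 omitted, 11 with P90 array 1 omitted, 4 with P90 array 2 omitted, 11 with both 3'-biased arrays omitted and 19 after quantile normalization. The bilirubin-forming enzyme Blvra (log2 2.27 ± 0.43, adjusted p = 0.00412), the microsomal glutathione transferase Mgst3 (log2 2.56 ± 0.54, adjusted p = 0.00684) and the amino acid transporter Slc43a2 (log2 2.26 ± 0.43, adjusted p = 0.00391) rose, and the glycogen synthase Gys1 fell (log2 -1.25 ± 0.27, adjusted p = 0.00749).

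**Figure D4:**
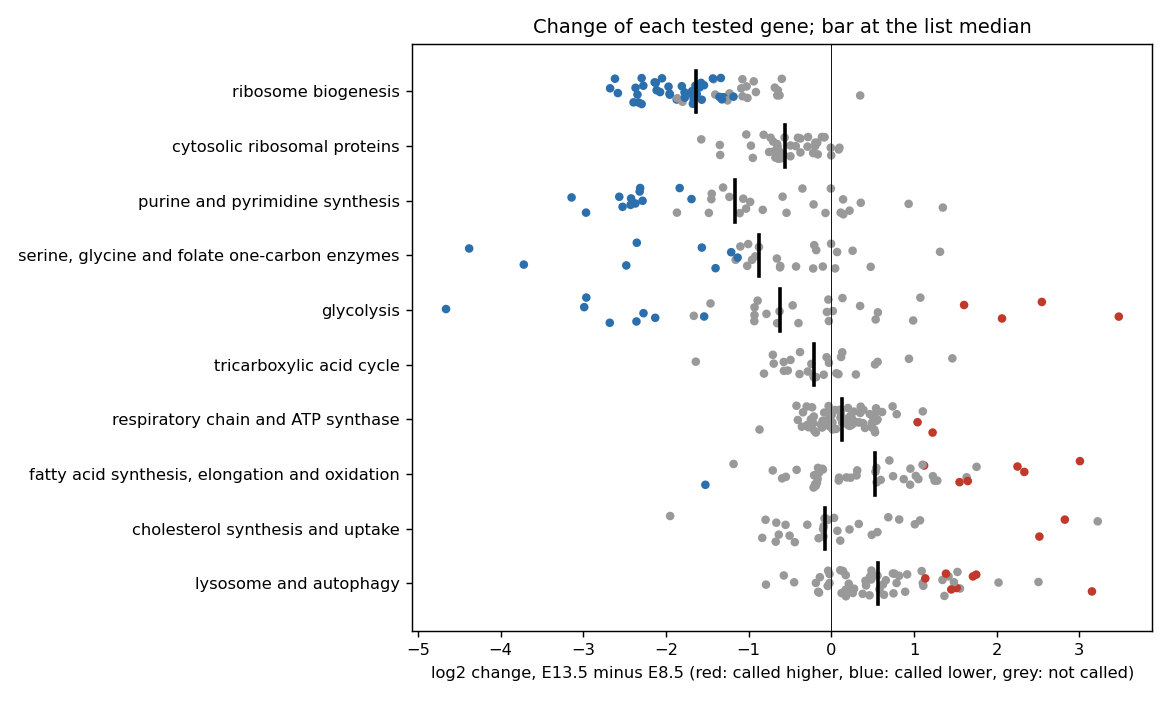
Log2 change (x axis, E13.5 minus E8.5) of every tested gene in 10 metabolic lists (y axis), with red for called higher, blue for called lower, grey for not called and a black bar at the list median; vertical offsets within a list only separate points. Ribosome biogenesis (median -1.64) and purine and pyrimidine synthesis (-1.17) lie to the left, respiratory chain genes cluster around 0.13, and glycolysis spreads over both sides.

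**Figure D5:**
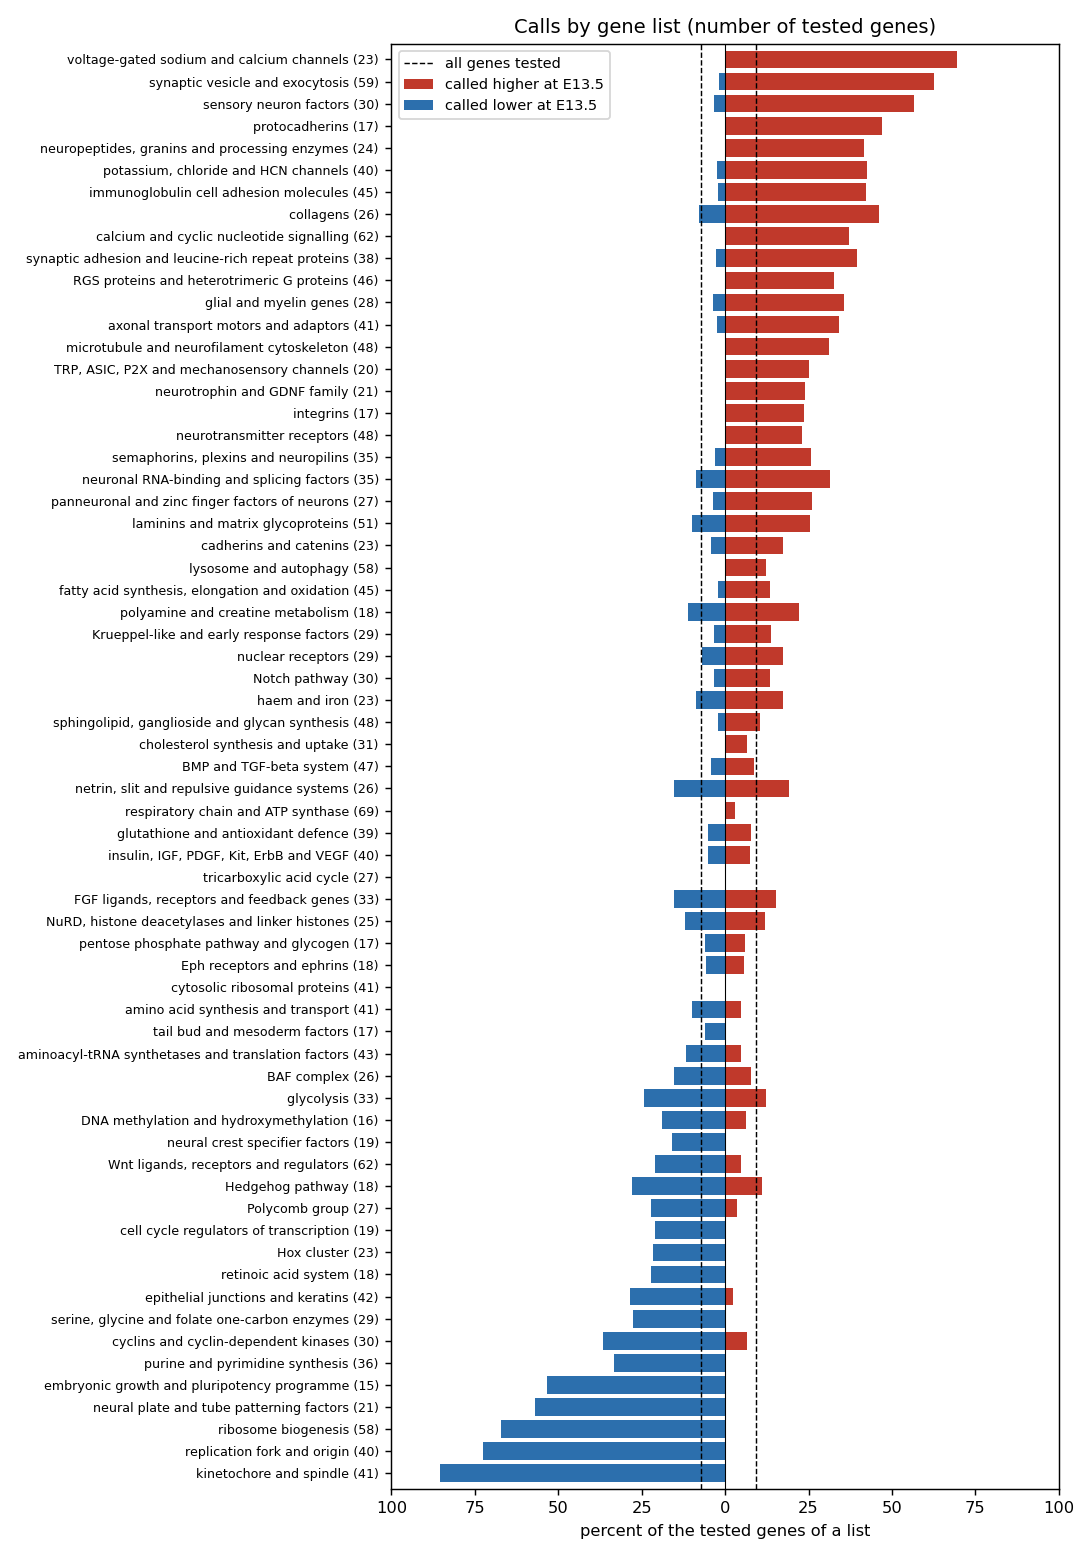
Percent of the tested genes (numbers in brackets) called higher at E13.5 (red, to the right) or lower (blue, to the left) in each list with at least 15 tested genes, markers of other cells left out; dashed lines mark 9.27% and 7.22%, the shares among all tested genes. Sodium and calcium channels and synaptic vesicle genes have the longest red bars, and kinetochore and replication genes the longest blue bars.

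By class, higher calls were most frequent among neuronal genes (133 of 329, with 4 lower) and lower calls among growth and cell cycle genes (88 of 159, with 2 higher). Of all tested genes, 9.27% were higher and 7.22% lower. Adhesion genes had 91 higher and 28 lower of 338, signalling genes 64 and 32 of 377, and metabolic genes 42 and 85 of 652. Transcription factors were balanced, with 37 higher and 33 lower of 228. Markers of other cell types moved too. Summed signals of 18 endothelial markers were 1201 to 2598 at E8.5 and 2954 to 4217 at E13.5, with 5 of 19 tested called higher. That number became 2 with E8.5 array 1 or E13.5 array 3 omitted, 3 with E8.5 arrays 2 or 3 or E13.5 array 1 omitted. Sums of 15 macrophage markers were 1654 to 2291 and 3125 to 3296, with 2 of 16 tested called higher, a number that became 0 with E8.5 arrays 1, 2 or 3 or E13.5 arrays 1 or 3 omitted, 1 with E13.5 array 2 omitted, 5 with P90 array 1 omitted. Sums of red cell (816 to 3977 and 745.5 to 1469), muscle (1164 to 1675 and 942 to 1953) and spinal cord markers (418 to 500.1 and 341.5 to 737) overlapped between the stages. The muscle factor Myf5 fell, with 34.6, 397 and 202 at E8.5 and 2.34, 4.98 and 3.32 at E13.5 (log2 -3.09 ± 0.56, adjusted p = 0.003), and the adult globin Hbb-b2 rose, with 30.9, 28.5 and 21.6 at E8.5 and 86.2, 487 and 615 at E13.5 (log2 2.90 ± 0.58, adjusted p = 0.00565). No tested marker was below the filter signal on all 6 arrays; listed markers that failed the filter were not in this check. The part of other cells in the results was not tested.

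The deposited table has empty cells in genes known for either stage. On all 3 E13.5 arrays 218 probe sets of 189 genes were empty; 104 of these genes were tested through another probe set, of which 51 rose and 1 fell (median 1.55), and 85 could not be tested. Among those 85 are Stmn2, Gap43, Nefl, Trpv1 and Piezo2, genes of axons and sensory endings. On all 3 E8.5 arrays 56 probe sets of 52 genes were empty; 27 of these genes were tested through another probe set, of which 20 fell and 7 were not called (median -2.27), and 25 could not be tested, Sox1, Sall1 and Trim71 among them. The cause of the empty cells is not given in the sources used here and was not tested. Counts of neuronal rises and early falls therefore leave out such genes.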

How the data were processed

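Affymetrix arrays of 9 laser-captured samples were used, 3 each of E8.5, E13.5 and P90. The authors deposited 1 table of linear intensities, with a floor of 1 and 8048 of 405909 cells empty (1.98%). The scaling is not stated, and per the submitters' processing notes MAS5, GCOS, RMA and GCRMA were named with no role given. RNA was extracted with PicoPure and made into biotin-labelled cRNA, per the labels' protocols.

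Of 45101 probe sets, 34945 carry 1 gene symbol, 932 several and 9160 none, and 64 are controls. Probe sets with a signal of at least 26.1 on at least 3 of 9 arrays and at least 2 values per stage were kept (24012), and the brightest stood for its gene. All 9 arrays were fitted on log2(signal + 16) with limma 3.58.1 (R 4.3.3; eBayes with trend; 6 residual degrees of freedom), and p-values were adjusted by the Benjamini-Hochberg method over 13747 genes at 0.05. The fit was tested on simulated data.

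Genes named are the 4 stage markers, the 12 largest rises and the 12 largest falls, up to 3 called genes of each direction in a list, and further list members chosen for their role. The largest rises and falls were taken among called genes with no empty value and no overlap of the stages. Members and all 78 lists were chosen with earlier results of these data known, so a list's count is not independent evidence of its direction. P-values measure only the spread between these samples. Alternatives changed the scaling, pseudocount, filter, variance model, probe sets, empty cells, arrays and replicate block. Leaving out E8.5 replicate 1 together with E13.5 replicate 2 was chosen after seeing the data.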

Additional observations from a re-analysis of the deposited data

How the results depend on the processing

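Both main counts stayed within 1.5 times under all alternatives other than those given here. Requiring a change of at least 2-fold, a stricter question, left 364 genes higher and 187 lower, and ended the calls of 66 of the 222 genes named with values. Leaving out 1 array gave 779 to 1674 higher and 572 to 1209 lower. Other settings gave 1082 to 1593 higher and 826 to 1444 lower, except that leaving out E8.5 replicate 1 with E13.5 replicate 2 gave 1370 and 690. With the replicate block, 1214 were higher and 937 lower. Same-numbered arrays of the stages deviated with correlations of -0.045, -0.305 and 0.125 across 30567 probe sets, and differently numbered arrays with -0.190 to 0.240. Deviations from a mean of 3 arrays are not independent, so these values cannot decide whether samples were paired. The labels give no link beyond the number. Of the named calls, the block ended that of Ndufv3 (adjusted p = 0.0592) and added Pkm (adjusted p = 0.0322). Hoxa3 changed sign to 0.082 with _s_at and _x_at probe sets omitted, to 0.082 where genes with empty cells were left out and to 0.27 with empty cells at the array maximum. Slc2a3 changed sign to 0.12 with _s_at and _x_at probe sets omitted. Ntrk3, not called, changed sign to 8.31 with empty cells at the array maximum and was then called (adjusted p = 2.15e-07). That setting forces a rise where all E13.5 values of a probe set are empty, as for Ntrk3, and a fall where all E8.5 values are. The causes of the other sign changes were not tested. Signals near the floor limit the size of a fold change, and 3 arrays per stage limit its precision.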
